A study of Mus musculus with 13 samples.

Results

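Acetylation of lysine 27 on histone H3 (H3K27ac) was followed by chromatin immunoprecipitation and sequencing (ChIP-seq) in C2C12 cells. These are mouse myoblasts that stop dividing and fuse into myotubes once serum is lowered. Of 133768 merged H3K27ac regions in the wild-type time course, 1797 (1.34%) had a peak at 6 and 12 h of differentiation and none at the other 5 times, and these brief regions are described here. They were chosen by their presence in the authors' deposited peak lists: peaks of the 7 wild-type libraries at -24, 0, 6, 12, 24, 48 and 72 h were merged where they shared at least 1 base, and the calls in all 7 lists selected the members. Time was counted from the change of growth medium to differentiation medium, so the libraries at -24 and 0 h came from undifferentiated myoblasts. Whether these regions had a peak was then asked in 5 edited C2C12 lines, all taken at 48 h in differentiation medium, whose lists played no part in the choice. In the Myod1 knockout the Myod1 gene had been disrupted with CRISPR/Cas9. The other 4 lines carried deletions of regulatory regions the submitters name hotspots. H1 or H3 was deleted alone, while the lines H23 and H34 were made by deleting H3 in cells that already lacked H2 or H4. The labels call all samples C2C12 myoblasts, whatever the time, and do not say whether a line was 1 clone. Each condition had 1 library, so every value describes single lists and no test between conditions was possible. The word brief therefore refers to the pattern of calls alone. Read depth was unknown, the CRISPR control library was not analysed here, and cell identity was not checked by marker genes because no mm9 annotation was used.

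H3K27ac is placed by the acetyltransferases p300 and CBP and marks active promoters and enhancers. It can be gained and lost within hours when signalling changes. MyoD, the product of Myod1, is a basic helix-loop-helix transcription factor that binds E-box motifs and recruits acetyltransferases to muscle enhancers. In C2C12 cells the first hours in low serum cover the loss of growth factor signalling and exit from the cell cycle, before most sarcomere genes are switched on.

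Among regions with a peak at exactly 2 times, the pair of 6 and 12 h was the second most common of the 21 possible pairs. It made up 1797 of the 17436 such regions (10.3%). The most common pair was 0 and 12 h, which skips 6 h, with 2136 regions. The neighbouring pairs in time were smaller, with 895 regions for 0 and 6 h and 1233 for 12 and 24 h. The 5 most common pairs all contained 12 h, and no list of the time course was longer than that at 12 h, with 101331 peaks against 82369 at 6 h and 69251 to 86465 at the other 5 times. The part of list length in these counts was not tested.

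**Figure D1:**
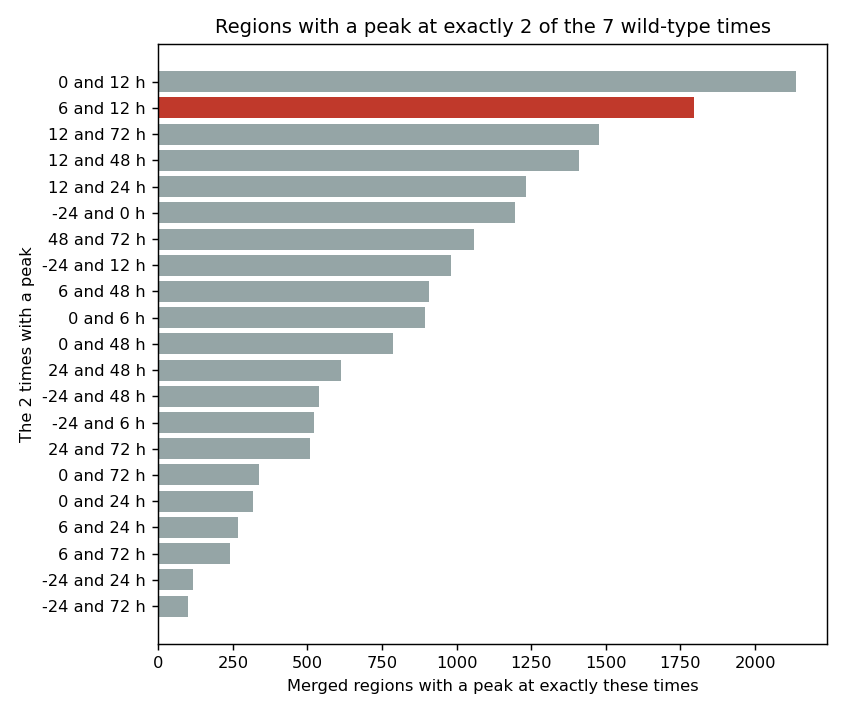
Number of merged regions (x axis) with a peak at exactly the 2 wild-type times named on the y axis, 1 library per time. The red bar marks the 1797 regions at 6 and 12 h, below the 2136 regions at 0 and 12 h and above the 1477 at 12 and 72 h.

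Seen from the 6 h list, 12 h was the most frequent partner. Of 4627 regions with a peak at 6 h and at 1 other time, 38.8% (95% Wilson interval 37.4 to 40.3, as for all shares given with a range) had it at 12 h, 19.6% at 48 h and 19.3% at 0 h. Seen from the 12 h list, 6 h was not: of 9034 such regions 19.9% (19.1 to 20.7) had their other peak at 6 h and 23.6% (22.8 to 24.5) at 0 h. Regions at 6 h alone numbered 4830 and regions at 12 h alone 14243. Most regions shared by 6 and 12 h were not brief. Of 48172 regions with a peak at both times, 22485 (46.7%) had one at all 7 times, and the 1797 members were 3.73% (3.56 to 3.90) of them. A peak at 0 h as well was more common than any other single addition, with 1315 regions, against 574 for 48 h, 544 for 24 h, 488 for -24 h and 422 for 72 h. All intervals here cover counting error only, since neighbouring regions share their surroundings and each condition was sequenced once.

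The size of the set depended on how absence was defined. There were 361 members with no peak of the other 5 times within 1 kb, and 462 when peaks within 1 kb were merged first. With the 55585 strongest peaks of every list there were 686. Without the 48 h list, the only one of the time course deposited in the 10-column format, there were 2697.

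Brief regions were narrow. Their median merged width was 246 bp (quartiles 193 and 311), from 124 to 1170 bp, against 309 bp over all 133768 regions and 1184 bp for regions with a peak at all 7 times. The peaks themselves had a median of 163 bp in the 6 h list, where all peaks had 280 bp, and of 172 bp in the 12 h list, where all peaks had 258 bp. Regions at 0 and 6 h only had a median of 229 bp, those at 12 and 24 h only 217 bp and those at 0 and 12 h only 236 bp. Narrowness was thus shared by regions called at few times. A merged width also depends on how many lists contribute to it, and regions at 6 h or 12 h alone had medians of 140 and 139 bp.

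In 1760 of the 1797 members a single 6 h peak overlapped a single 12 h peak. The 2 peaks shared a median of 120 bases (quartiles 87 and 147), or 89.3% of the shorter peak. In 1470 (83.5%) the overlap was at least 50% of the shorter peak, and in 582 (33.1%) one peak lay wholly within the other. The 12 h peak was the wider one in 901 (51.2%). Just inside the rule were 53 members whose peaks shared under 20 bases. Just outside it were 58 regions at 6 h only that lay within 20 bases of a region at 12 h only.

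Member peaks ranked low in both lists. The authors' score per peak, whose unit was not stated, had a median of 8.01 for member peaks at 6 h, against 11.96 for the whole list, and of 8.30 against 10.72 at 12 h. As a percentile within the list, the median was 22.2 at 6 h (quartiles 10.6 and 35.5) and 33.6 at 12 h (11.8 and 42.5). None of the 1810 member peaks at 6 h and 7 of the 1822 at 12 h lay above the 75th percentile of their list, and 20 members (1.11%) lay above the 50th in both. Low scores came in steps: 7998 peaks of the 12 h list, 7.89% of it, shared the score of 8.30. Percentiles therefore move in jumps. The median at 12 h was 22.8 for regions at 0 and 12 h only and for those at 12 and 24 h only. At 6 h, regions at 0 and 6 h only had the same median as the members, 22.2. Peaks of regions present at all 7 times had medians of 72.0 at 6 h and 77.2 at 12 h. Ranks at the 2 times were weakly related, with a Spearman rho of 0.111 across the 1797 members, which share both libraries and a choice that keeps weak peaks.

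**Figure D2:**
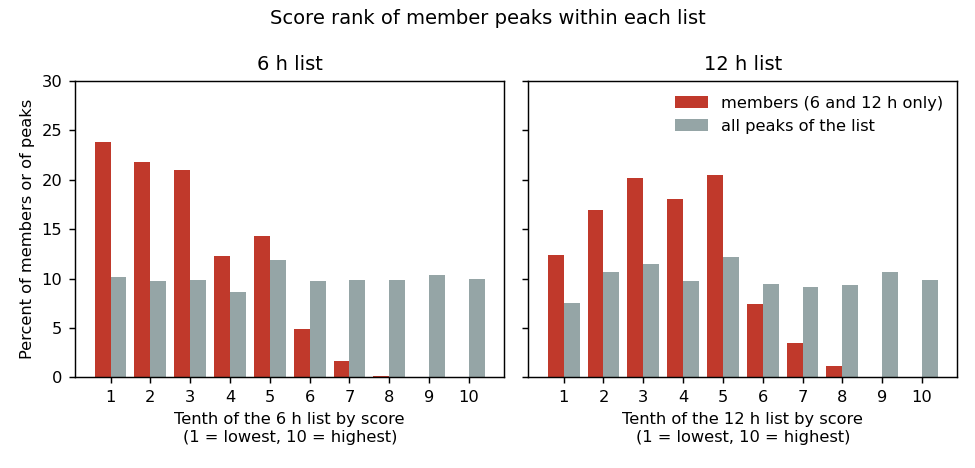
Percent of the 1797 members (red, by the strongest member peak) and of all peaks of the list (grey) in 10 bins of score percentile (x axis) of the 6 h list (left) and the 12 h list (right). Members fill the lower bins, with 23.8% in the lowest at 6 h and 12.4% at 12 h, and none lies in the top 2 bins of either list. The grey bars are uneven because scores are tied.

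In each of the 5 widest members the strongest 12 h peak was wider than the strongest 6 h peak, and the scores given here are those of the strongest peaks. The widest of all, on chromosome 9 from 34835311 to 34836480 (1170 bp, mm9), had a score of 10.69 at 6 h and 13.28 at 12 h. It had no peak in the Myod1 knockout, H1 or H3 lists. Its peaks in H23 and H34 had −log10 p-values of 5.28 and 4.01. The second, on the same chromosome from 14364063 to 14365065 (1003 bp), scored 12.86 and 15.95 and lay 7681 bp from the nearest peak of any other time. It had a peak in each of the 4 hotspot lines, at 4.48-fold to 5.18-fold enrichment, and none in the knockout. A further one, 63555048 to 63555980 on chromosome 9 (933 bp), scored 8.65 and 17.32. Each of the other 5 wild-type lists had a peak 125 to 193 bp from it, and all 4 hotspot lines but not the knockout had a peak there.

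The other 2 of the 5 widest lay on chromosome 1. The one from 72167850 to 72168616 (767 bp) rested on a 6 h peak with a score of 4.09, at percentile 0.0540 of its list. Its 12 h peak covered all 767 bp, and the H1 and H34 lines had a peak there. The one from 179268674 to 179269436 (763 bp) scored 8.01 and 7.16 and was remote. Its nearest peak at any of the other 5 times lay 79559 bp away, in the 48 h list, and no edited line had a peak there.

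Ranked by the lower of the 2 percentiles, the strongest member lay on chromosome 1 from 62679195 to 62679650 (456 bp). It scored 19.69 at 6 h (percentile 71.2) and 22.62 at 12 h (76.5). None of the 5 edited lines had a peak there, although peaks of the -24, 0 and 24 h lists lay 898 to 972 bp away. Next came a member on chromosome X from 7419446 to 7419899 (454 bp), with scores of 15.47 and 17.32. All 5 lines had a peak there, and a region with peaks at all 7 times lay 182 bp away. The third, on chromosome 8 from 42184962 to 42185310 (349 bp), scored 15.27 and 18.73 and had a peak in H34 alone of the lines. The fourth, on chromosome 6 from 30644009 to 30644267 (259 bp), scored 15.11 and 14.60 and had a peak in the 4 hotspot lines, each with its summit inside the member. The fifth, on chromosome 1 from 44623598 to 44623835 (238 bp), scored 14.43 and 13.28 and had no peak in any line. Of these 5 members, 2 had no peak in any edited line and 1 had a peak in all.

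Most members as chosen had another 12 h peak within 1 kb, as had most regions of the other patterns counted. In the 12 h list 77.4% (75.4 to 79.2) of members had another peak within 1 kb, at a median gap of 340 bp, and in the 6 h list 65.9% (63.7 to 68.1), at 493 bp. Of the 361 members with no peak of the other 5 times within 1 kb, 34.9% had another 12 h peak within 1 kb. Over all 1797 members, the share was 46.1% (43.8 to 48.4) in the -24 h list and 63.9% (61.7 to 66.1) in the 0 h list. Later lists had 53.1% (50.8 to 55.4) for 24 h, 43.4% (41.1 to 45.7) for 48 h and 43.0% (40.7 to 45.3) for 72 h. Peaks around members were thus most frequent at 12 h and least frequent at 48 and 72 h. The lists are of unequal length, and other pairs were also often beside 12 h peaks. The share over all merged regions was not computed. In the 12 h list the share was 73.5% (70.9 to 75.9) for regions at 12 and 24 h only, 74.5% (72.6 to 76.3) for 0 and 12 h and 71.8% (68.8 to 74.7) for 0 and 6 h. Regions at 12 h alone had one less often, in 61.3% (60.5 to 62.1) of cases, and those at all 7 times in 78.1% (77.6 to 78.7).

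**Figure D3:**
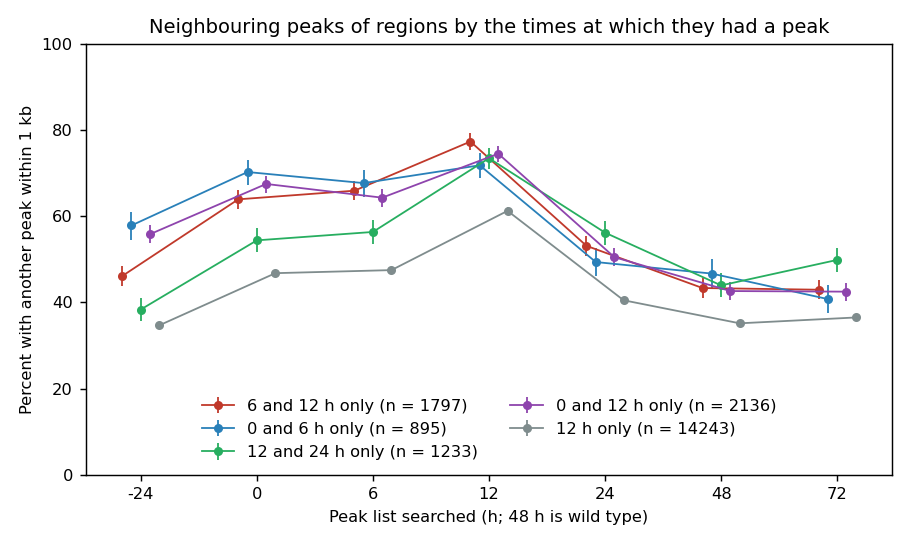
Percent of regions (y axis) with another, non-overlapping peak within 1 kb in each wild-type list (x axis, hours), for members (red) and regions with other times of presence; bars are 95% Wilson intervals. The members peak at 77.4% in the 12 h list and fall to 43.0% at 72 h, and regions at 12 h alone lie below them in every list.

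The company members kept was mixed. The nearest other region had a peak at 1 time only in 34.8% (32.7 to 37.1) of cases, against 43.6% of all regions, and at all 7 times in 16.8% (15.1 to 18.5), against 16.8% of all regions. For other pairs it had a peak at 1 time only in 34.9% (0 and 6 h), 35.7% (0 and 12 h) and 41.0% (12 and 24 h) of cases. A region present at all 7 times lay within 1 kb of 505 members (28.1%, 26.1 to 30.2). This was 28.0% for regions at 0 and 6 h only, 333 of 1233 for 12 and 24 h and 29.3% for 0 and 12 h, and 22.4% and 21.6% for regions at 6 or 12 h alone. The median gap to such a region was 5245 bp. A peak of one of the other 5 times came within 100 bases of 367 members (20.4%, 18.6 to 22.3), which the rule counts as absent there. At the other end, 86 members (4.79%, 3.89 to 5.87) had none of these within 10 kb, a distance chosen after the data were seen, and 46 had no other peak of any of the 7 times in that distance.

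At a limit of 50 kb, more members stood alone than in groups. The median gap from one to the nearest other was 114195 bp, and 99 (5.51%) had another within 1 kb, but 627 (34.9%, 32.7 to 37.1) had another within 50 kb. The same shares were not computed for other regions. When members with gaps of at most 50 kb were chained, 1170 stood alone, 225 chains held 2 members, 38 held 3, 12 held 4 and 3 held 5.

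The 3 chains of 5 differed in the edited lines. On chromosome 5, from 37054084 to 37123859 (69.8 kb), the span held 22, 28, 28, 33, 20, 13 and 17 peaks in the wild-type lists from -24 to 72 h, as many at 0 h as at 6 h. All 5 of its members had a peak in H1 and in H23, 3 in H3 and in H34 and 2 in the Myod1 knockout. Not all of these line peaks were narrow. At the member from 37103048 to 37103228 the H23 peak was 6542 bp wide, at 33.8-fold enrichment, and its summit lay outside the member. The same H23 peak reached the next member of the chain, from 37109172 to 37109573. On chromosome 3, from 121251572 to 121333510 (81.9 kb), these lists held 40, 43, 53, 53, 50, 24 and 25 peaks, so that 24 h was close to 6 and 12 h. No edited line had a peak at any of its 5 members. The chain on chromosome 18, from 60793520 to 60880000, had 20, 24, 31, 41, 22, 14 and 22 peaks, and 1 of its 5 members had a peak in H1, 1 in H23 and 1 in H34.

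**Figure D4:**
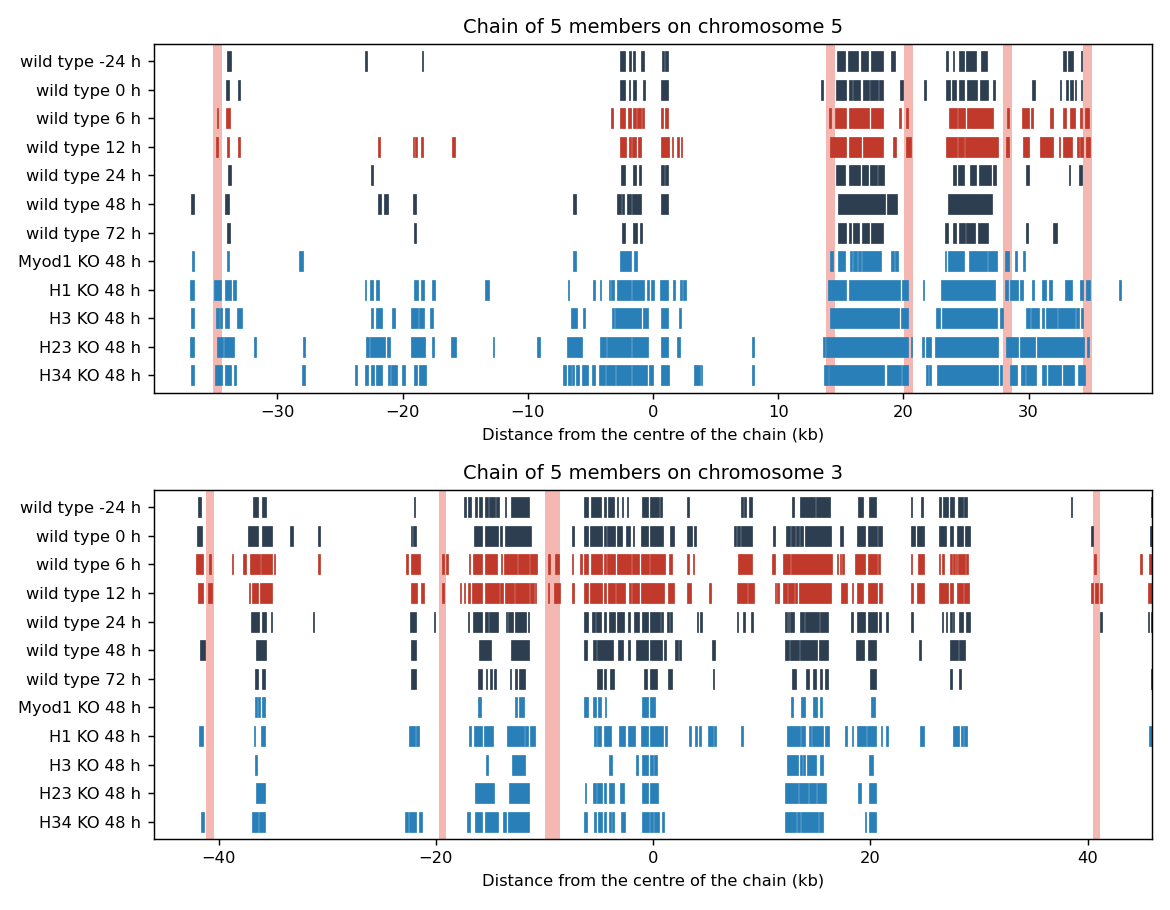
Deposited peaks as boxes (red for 6 and 12 h, black for the other wild-type times, blue for the edited lines) around the chains of 5 members on chromosome 5 (top) and chromosome 3 (bottom), with distance from the centre of the chain in kb on the x axis and 1 library per row. Pale bands, drawn wider than the members, mark the members, which have red boxes alone among the wild-type rows; on chromosome 3 no blue box overlaps a member.

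In the edited lines, brief regions had a peak at shares below those of all regions, but the choice bears on this: the lines were taken at 48 h, and members by rule have no wild-type peak at 48 h. The Myod1 knockout had a peak at 129 of the 1797 members (7.18%, 6.07 to 8.47), where it had one at 24.8% of all regions. The share was 43.0% (40.7 to 45.3) in H1 against 60.2% of all regions, and 32.9% (30.8 to 35.2) in H3 against 49.8%. It was 47.2% (44.9 to 49.5) in H23 against 59.9%, and 45.5% (43.2 to 47.8) in H34 against 59.4%. Among the 69910 regions of any pattern without a wild-type 48 h peak, the knockout had a peak at 8.25%, H1 at 39.0%, H3 at 28.2%, H23 at 40.4% and H34 at 39.3%. Members, which are among these regions, had higher shares in each hotspot line, and the 8.25% of the knockout lay inside their interval. This excess was not particular to members. Regions at 12 and 24 h only and those at 0 and 12 h only also had higher shares in each hotspot line. Regions at 0 and 6 h only did so except in H1, where their share was 34.7%. With the 48 h list left out of the rule, the knockout had a peak at 12.9% (11.7 to 14.3) of members against 27.8% of all regions. H1 then had 56.4% against 62.9%, H3 46.2% against 53.2%, H23 58.8% against 62.8% and H34 58.0% against 62.7%. Regions at 6 h or 12 h alone, which also lack a wild-type 48 h peak, were found in the knockout in 3.62% and 4.98% of cases. The hotspot lists reach down to lower −log10 p-values than the wild-type list at 48 h, which by the rule has no peak at any member. With line peaks of a −log10 p of at least 5 the members' share was 6.84% in the knockout against 24.4% of all regions. In H1 it was 37.3% against 55.6%, in H3 31.0% against 48.2%, in H23 44.4% against 57.5% and in H34 42.1% against 56.4%. With equal numbers of strongest peaks the knockout, whose list was the shortest, had a peak at 15.6% of the members against 35.3% of all regions. H1 then had 31.0% against 52.4%, H3 28.7% against 50.4%, H23 40.1% against 57% and H34 35.4% against 53.5%.

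Against other pairs, differences were small and went both ways. In H1 the members exceeded regions at 0 and 6 h only, of which 34.7% had a peak, by 8.27 points (95% Newcombe interval 4.36 to 12.1). They were below regions at 12 and 24 h only, at 49.1%, with a difference of -6.05 points (-9.65 to -2.44). In H23 they exceeded regions at 12 and 24 h only by 5.75 points (2.14 to 9.31), and in H34 by 3.78 points (0.181 to 7.35). In the knockout they exceeded regions at 0 and 6 h only, at 4.36%, by 2.82 points (0.923 to 4.55), and the difference from regions at 12 and 24 h only was -0.688 points (-2.66 to 1.20). In H3 the differences were 1.44 points (-2.34 to 5.13) and 2.12 points (-1.27 to 5.47). Regions at 0 and 12 h only were added after the data were seen. Members exceeded them by 4.59 points (1.49 to 7.69) in H34, and in the other 4 lines the interval included 0. Of 15 such differences 6 had an interval that excluded 0, with no adjustment for their number. None of the 5 among them from the planned pairs kept such an interval under every setting. With equal numbers of strongest peaks the H1 difference from 12 and 24 h was -0.747 points (-6.47 to 4.84). With peaks merged within 1 kb the H23 excess was 4.50 points (-2.22 to 11.1), the H34 excess 5.61 (-1.07 to 12.2) and the knockout's excess over 0 and 6 h 1.92 (-2.21 to 5.06). Among regions with no peak of another time within 1 kb, the H1 excess over 0 and 6 h was 5.30 points (-3.81 to 13.7).

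**Figure D5:**
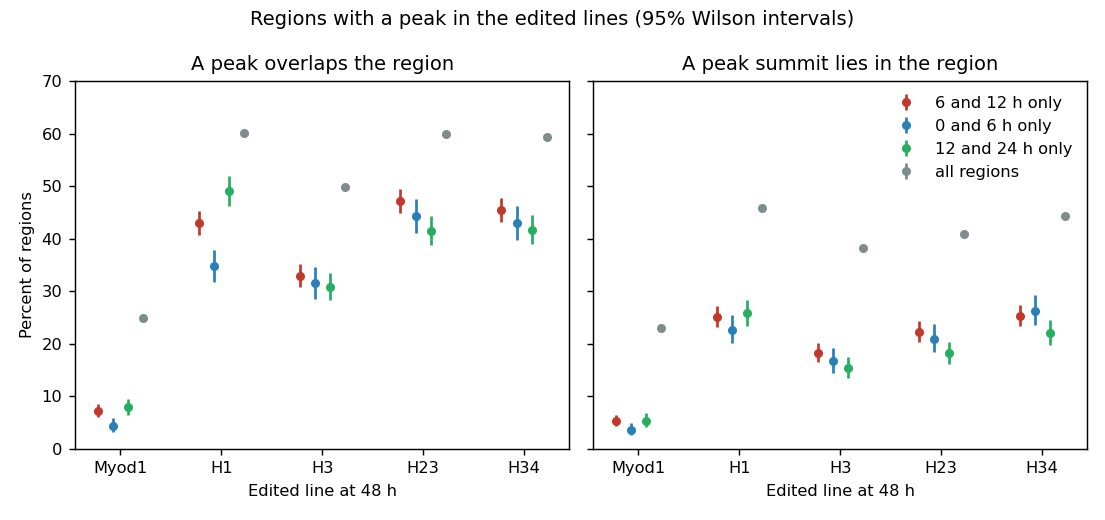
Percent of regions (y axis) with an overlapping peak (left) or a peak summit (right) in each edited line at 48 h (x axis), for members (red), regions at 0 and 6 h only (blue), regions at 12 and 24 h only (green) and all regions (grey); bars are 95% Wilson intervals. Members lie below all regions in every line, of which many have a wild-type 48 h peak, and in H1 they fall from 43.0% by overlap to 25.1% by summit.

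Line peaks were often wider than the member they overlapped. The strongest line peak at a member had a median width of 208 bp in the Myod1 knockout, 352 bp in H1, 387 bp in H3, 410 bp in H34 and 572 bp in H23. It also overlapped another time course region in 28.7% of cases in the knockout, 38.4% in H1, 43.1% in H3, 41.1% in H34 and 50.4% in H23. Asking instead for a line's summit inside the member, a measure added after the data were seen, gave 5.23% (4.29 to 6.36) in the knockout, where 23% of all regions held a summit. It gave 25.1% (23.1 to 27.2) in H1 against 45.8%, and 18.3% (16.5 to 20.1) in H3 against 38.3%. In H23 it was 22.3% (20.4 to 24.2) against 41%, and in H34 25.3% (23.4 to 27.4) against 44.3%. H23 thus had the highest share of members by overlap but not by summit.

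By summit, the contrasts of H1 were smaller. Members differed from regions at 0 and 6 h only by 2.42 points (-1.04 to 5.75) and from those at 12 and 24 h only by -0.693 points (-3.88 to 2.44). The knockout's difference from regions at 0 and 6 h only was 1.66 points (-0.0529 to 3.18). The excess over regions at 12 and 24 h only was 4.09 points (1.17 to 6.94) in H23, 3.26 points (0.164 to 6.29) in H34 and 2.92 points (0.197 to 5.58) in H3. For the H34 excess by overlap, an overlap of 50% of the shorter peak gave 1.44 points, with an interval that included 0.

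Among members, nearness to a lasting region went with a peak in the lines by overlap, while by summit the differences had intervals that included 0. The same split was not made for other regions. Of the 505 members within 1 kb of a region present at all 7 times, 54.5% (50.1 to 58.7) had a peak in H1, against 38.5% (35.9 to 41.2) of the other 1292, a difference of 15.9 points (10.8 to 20.9). In the knockout it was 3.24 points (0.547 to 6.35), and for the lines lacking H3 it was 14.8 (9.82 to 19.7) in H3 itself, 12.9 (7.72 to 17.9) for H23 and 12.2 (7.09 to 17.3) for H34. Both groups of members had similar median widths, 245 and 246 bp, and the same median lower percentile of 15.7. For a summit inside the member the knockout differed by 1.26 points (-0.951 to 3.92), H1 by 1.17 (-3.19 to 5.77) and H3 by 2.71 (-1.22 to 6.92). H23 differed by -1.77 points (-5.85 to 2.60) and H34 by -1.62 (-5.91 to 2.93), so that all 5 intervals included 0. Of the 86 members with no peak of the other 5 times within 10 kb, 6 had a peak in the knockout (6.98%, 3.24 to 14.4). All regions, of which many have a wild-type 48 h peak, had 24.8%. In H1 it was 27 (31.4%, 22.6 to 41.8) against 60.2%, and in H3 19 (22.1%, 14.6 to 31.9) against 49.8%. In H23 it was 31 (36.0%, 26.7 to 46.6) against 59.9%, and in H34 30 (34.9%, 25.7 to 45.4) against 59.4%. For other pairs this was not computed.

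Members were then split by width and by rank. In H1 a peak was found at 41.7% (37.5 to 46.0) of members under 200 bp, 42.3% of those from 200 to under 300 bp and 45.4% (41.1 to 49.7) of those of 300 bp or more. In the knockout the shares were 8.72%, 5.97% and 7.44%. For 0 and 6 h, 12 and 24 h and 0 and 12 h only, H1 had 32.7%, 48.1% and 40.4% under 200 bp. From 200 to under 300 bp these were 36.3%, 47.8% and 38.6%, and at 300 bp or more 34.8%, 53.4% and 44.3%. In the knockout they were 3.85%, 7.04% and 6.84%, then 5.01%, 7.87% and 9.23%, then 3.80%, 9.49% and 9.40%. The split by rank was not made for other pairs. In 4 groups of members by the lower percentile, from the weakest to the strongest, H34 had a peak at 42.0%, 40.8%, 49.9% and 49.2% of members. H23 had one at 45.1%, 47.0%, 45.7% and 51.0%. The knockout had one at 6.22% (4.34 to 8.85), 7.57%, 5.79% (3.98 to 8.35) and 9.13% (6.80 to 12.2), with intervals that overlap.

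Across the 5 lines, 540 members (30.1%, 28.0 to 32.2) had a peak in none and 78 (4.34%, 3.49 to 5.38) in all. Of all regions, 21.5% had a peak in none and 21.1% in all. Regions at 0 and 6 h only had a peak in none in 35.0% of cases and in all in 2.35%. For 12 and 24 h these were 29.7% and 4.06%, and for 0 and 12 h 31.5% and 4.35%. By summit 867 members (48.2%) were found in no line and 15 (0.835%) in all 5, against 34.6% and 15.8% of all regions. The 4 hotspot lines all had a peak at 311 members (17.3%), against 37.1% of all regions. For 0 and 6 h, 12 and 24 h and 0 and 12 h only the share was 13.4%, 16.0% and 14.6%. Knockout peaks without a peak in any hotspot line were few, at members and over all regions. They were found at 3 of the 129 members with a knockout peak and at 210 of the 33177 regions with one. Of these 129 members, 78 (60.5%, 51.8 to 68.5) had a peak in all 4 hotspot lines, a lower share than the 85.2% of all regions with a knockout peak. For other pairs with a knockout peak it was 53.8% (0 and 6 h), 51.5% (12 and 24 h) and 50.8% (0 and 12 h). A peak in H1 and none in the 3 lines lacking H3 was found at 144 members (8.01%, 6.85 to 9.36), against 6.76% of all regions. The reverse, a peak in the 3 lines lacking H3 and none in H1, was found at 97 members (5.40%, 4.45 to 6.54), against 4.26%. Of the hotspot lines, H34 alone had a peak at 5.68% of members against 3.97% of all regions, H23 alone at 5.56% against 3.47% and H3 alone at 1.45% against 0.946%. For 0 and 6 h, 12 and 24 h and 0 and 12 h only, H34 alone had 6.1%, 5.5% and 5.5%. H23 alone had 5.70%, 3.81% and 7.21%, H3 alone 1.79%, 2.35% and 1.31%, and H1 alone 6.26%, 11.9% and 8.24%. For a peak in the 3 lines lacking H3 and none in H1 these pairs had 8.27%, 3.73% and 5.34%. Higher shares than over all regions were thus not particular to members.

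The 5 highest ranked members with a peak in all 5 lines began with the one on chromosome X described above. There the −log10 p-value was lowest in the knockout, at 9.60, and 41.6 at the most, in H23. The next, on chromosome 2 from 92232265 to 92232454 (190 bp), had 14.7 in the knockout and from 5.57 (H34) to 54.2 (H23) in the hotspot lines. A 0 h peak lay 92 bp from it. The third, on chromosome 11 from 77307018 to 77307157 (140 bp), had peaks in all lines whose summits all lay outside it, and a region present at all 7 times was 132 bp away. The fourth, on chromosome 5 from 135553740 to 135554019 (280 bp), stood apart. Its nearest other peak at any time was 12958 bp away, yet the lines had enrichments of 12.4-fold in the knockout and 8.67-fold (H1) to 10.7-fold (H23) in the hotspot lines, and 4 of the 5 summits lay inside it. The fifth, on chromosome 9 from 121253951 to 121254373 (423 bp), had weaker peaks, at 4.24-fold in H3 to 7.85-fold in H1, with 4 summits inside.

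The highest ranked members with no peak in any line began with the 2 on chromosome 1 named above, at 62679195 and 44623598. Another lay on chromosome 3 from 128530039 to 128530296 (258 bp), with scores of 15.47 at 6 h and 12.54 at 12 h and another member 1077 bp away. The remaining 2 were on chromosome 13. The one from 112808330 to 112808753 (424 bp) scored 14.16 and 12.30, with its nearest 48 h peak 292224 bp away and a 72 h peak at 604 bp. The one from 31838856 to 31839200 (345 bp) scored 13.18 and 14.60 and had peaks of the 0, 24 and 72 h lists 675 to 713 bp away. All 5 of these members had another peak of the time course within 1 kb, the 12 h list included: at 65 bp for the one at 44623598, 460 bp for the one at 112808330, 509 bp for the one on chromosome 3 and 592 bp for the one at 62679195.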

How the data were processed

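The submitters' processing notes name MACS2 2.1.0 and mm9. Aligner, filters, control and thresholds: not given in the sources used here. The 6 deposited lists at -24, 0, 6, 12, 24 and 72 h had 5 columns with a score of unstated unit. The 6 deposited lists at 48 h had 10 columns, in which the authors gave a score, the fold enrichment at the summit, −log10 p- and q-values and the summit. Lowest −log10 p-values in the deposited lists were 3.01 to 3.03 in the hotspot lines, 4.02 in the knockout and 4.13 in wild type, and whether one cutoff was used was not tested. Scores were ranked within a list only.

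Peaks sharing at least 1 base were merged across the 7 wild-type lists. Shares carry 95% Wilson intervals and differences 95% Newcombe intervals. Named regions were the 5 widest members, the 5 with the highest lower percentile among all members, in all edited lines and in none, and the 3 longest chains. The members, lists and comparisons were chosen with earlier results of these data known. Settings varied were the overlap (50% of the shorter peak), a score of at least 5 or q under 0.001, equal numbers of strongest peaks, merging within 1 kb, no 48 h list, no other peak within 1 kb, and line peaks of −log10 p at least 4 or 5. The code was tested on 20000 simulated regions, all of which were recovered with their pattern. Simulated regions lay well apart and every peak crossed the centre of its region, so slim overlaps and close neighbours were not tried. No mm9 genome was used, so no sequence or gene is given. Python 3.11.15, numpy 2.4.6, pandas 2.3.3, scipy 1.17.1 and matplotlib 3.10.9 were used. Coordinates count from 1.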

Additional observations from a re-analysis of the deposited data

How the results depend on the processing

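No paired analysis was possible because each condition had 1 library and no labelled replicate numbers. Depth was unknown, so what it limits was not tested. There were 165 alternative values over 20 results. Of 90 alternative differences from other pairs, 6 had another sign than reported, each with an interval that included 0. The cause of each move was not tested. Reported differences from 0 and 6 h in H1 and the knockout, and from 12 and 24 h in H1, H23 and H34, each had an interval that included 0 under at least 1 setting.

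Without the 48 h list there were 2697 members, with a peak in 56.4% of cases in H1, 58.8% in H23, 46.2% in H3, 58.0% in H34 and 12.9% in the Myod1 knockout. With an overlap of 50% of the shorter peak the median width was 238 bp, the shares were 40.6% in H1, 44.3% in H23 and 42.2% in H34, and the H34 difference from 12 and 24 h was 1.44 points. With line −log10 p of at least 5 the shares were 37.3% in H1, 44.4% in H23 and 42.1% in H34. With a score of at least 5 or q under 0.001 the median 6 h percentile, ranked anew within the shortened list, was 21.02 and the H1 share 38.1%.

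By summit, added after the data were seen, the shares were 25.1% in H1, 22.3% in H23, 18.3% in H3, 25.3% in H34 and 5.23% in the knockout. The differences from 0 and 6 h were then 2.42 points in H1 and 1.66 in the knockout, and those from 12 and 24 h were -0.693 in H1 and 2.92 in H3.

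With peaks within 1 kb merged there were 462 members of median width 406 bp and median 12 h percentile 22.8, and by construction 0% had another 12 h peak within 1 kb. The shares were 35.9% in H1, 42.2% in H23, 24.7% in H3, 41.1% in H34 and 5.63% in the knockout. The differences were 10.5 points in H23 and 1.92 in the knockout from 0 and 6 h, and 4.50 in H23 and 5.61 in H34 from 12 and 24 h. With no peak of another time within 1 kb, 361 members had a median 12 h percentile of 22.8, and 34.9% had another 12 h peak within 1 kb. Their shares were 34.1% in H1, 42.1% in H23, 25.2% in H3, 40.2% in H34 and 5.54% in the knockout, with differences from 0 and 6 h of 5.30 points in H1, 10.6 in H23 and 2.12 in the knockout. With equal numbers of strongest peaks, 686 members had a median width of 334 bp, and 63.1% had another 12 h peak within 1 kb. The median percentiles of these members, ranked anew within the shortened lists, were 21.5 at 6 h and 18.0 at 12 h. Those values do not compare directly with percentiles in the full lists. Their shares were 31.0% in H1, 40.1% in H23, 28.7% in H3, 35.4% in H34 and 15.6% in the knockout, with differences from 12 and 24 h of -0.747 points in H1 and 1.52 in the knockout.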

Other observations

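The share of members differed from that of all regions, members included, on some chromosomes. Chromosome 1 held 162 of them (9.02%, 95% Wilson interval 7.78 to 10.4) and 7.29% of all regions, and chromosome 6 held 116 (6.46%, 5.41 to 7.69) and 5.15% of all regions. Chromosome 13 held 65 (3.62%, 2.85 to 4.58) against 4.68%, and chromosome 15 held 87 (4.84%, 3.94 to 5.93) against 6.06%. Chromosome X held 31 (1.73%, 1.22 to 2.44) against 1.65%. Chromosomes 1, 6, 13 and 15 are named because their interval excluded the share of all regions, which on every other chromosome it included. The intervals cover counting error only and were not adjusted for the 20 chromosomes. They treat members as independent, although some lie close together.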
